A study of Mus musculus with 48 samples.

Results

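The renin-angiotensin genes of the mouse brain were examined as a set of 8 genes: Agt, Ace, Enpep, Lnpep, Agtr1a, Agtr2, Mas1 and Atp6ap2. The members were taken by gene symbol from a table of 54532 genes, in which each symbol named 1 row. RNA sequencing was performed on male wild-type C57Bl6 mice that carried an osmotic minipump for 2 weeks. The pump delivered angiotensin II (AngII, 0.7 mg per kg per day), the pressor peptide of the system, or saline vehicle. A part of the mice received hydralazine (50 mg per kg), a vasodilator that lowers blood pressure, in the drinking water. The 4 treatments were AngII plus hydralazine, AngII, vehicle plus hydralazine and vehicle, each sampled in the hippocampus and in the brain hemisphere with 6 libraries per group, 8 groups and 48 libraries in all. All mice carried a pump; the age of the mice is not given in the labels. The labels do not say whether libraries came from separate mice, or whether both regions came from 1 mouse, so each p-value refers to the spread among libraries, which may be technical.

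In the classical pathway, renin cuts angiotensinogen (Agt), which brain astrocytes secrete, and angiotensin-converting enzyme (Ace) cuts the product to AngII. AngII acts on the AT1 receptor, encoded in mice by Agtr1a and Agtr1b, and on the AT2 receptor (Agtr2). Aminopeptidase A (Enpep) converts AngII to angiotensin III, and insulin-regulated aminopeptidase (Lnpep) binds angiotensin IV. Mas1 is the receptor for a shorter angiotensin that opposes AngII. Atp6ap2, the prorenin receptor, is also an accessory protein of the vacuolar proton pump. In the rodent brain the AT1 receptor is best known from the hypothalamus, circumventricular organs and brainstem, and Mas1 from the hippocampus.

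The members fell into groups by level: Agt and Ace, which were lower in the hippocampus than in the hemisphere; Mas1, which was higher there; and the AngII receptor genes Agtr1a and Agtr2, which stayed near 0 FPKM. Below are the sequences around the start of Agt, Ace and Mas1, shown because these members passed the filter on low values in each region and were called between regions. They are RefSeq sequences of build GRCm38.p6, read 5′ to 3′ on the gene's strand, from 250 bases before to 50 bases after the start. The table held a window for 7 of the 8 members. Capitals mark matches, on either strand, to TATAAA (the TATA box), CCAAT (the CCAAT box) or GGGCGG (the GC box).
Agt, chr8:124569657-124569956, minus strand: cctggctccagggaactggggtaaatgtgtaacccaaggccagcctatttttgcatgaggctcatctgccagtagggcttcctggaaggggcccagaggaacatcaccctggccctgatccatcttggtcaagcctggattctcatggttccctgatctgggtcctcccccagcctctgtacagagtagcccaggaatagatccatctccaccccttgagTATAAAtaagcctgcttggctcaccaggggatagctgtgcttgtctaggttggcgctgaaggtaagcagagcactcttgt
Ace, chr11:105967698-105967997, plus strand: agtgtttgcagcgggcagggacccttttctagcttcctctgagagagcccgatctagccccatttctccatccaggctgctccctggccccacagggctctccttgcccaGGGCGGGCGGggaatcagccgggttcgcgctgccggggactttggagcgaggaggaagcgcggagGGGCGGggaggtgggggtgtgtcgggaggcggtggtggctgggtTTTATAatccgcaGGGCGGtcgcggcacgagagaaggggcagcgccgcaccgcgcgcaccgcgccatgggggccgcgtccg
Mas1, chr17:12868094-12868393, minus strand: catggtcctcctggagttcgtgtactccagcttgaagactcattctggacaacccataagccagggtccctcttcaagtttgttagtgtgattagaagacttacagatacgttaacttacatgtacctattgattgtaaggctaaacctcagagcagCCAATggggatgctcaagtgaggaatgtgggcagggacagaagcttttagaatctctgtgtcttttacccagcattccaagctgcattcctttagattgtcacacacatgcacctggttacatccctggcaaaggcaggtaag
The Agt window held 1 TATAAA, at bases -30 to -25 counted from the start, and neither of the other motifs. In the Ace window GGGCGG stood 4 times, 2 of them overlapping, and TATAAA lay on the opposite strand at -31 to -26. The Mas1 window held 1 CCAAT at -93 to -89. Of all 32851 windows in the table, 13.6% held TATAAA, 37.4% held CCAAT and 35.7% held GGGCGG. The cAMP response element TGACGTCA, also searched on both strands, was in none of these 3 windows and in 1.79% of all windows. GC content was 54.7% in the Agt window, 69.7% in the Ace window and 46% in the Mas1 window, against a median of 52.7% over all windows. Ace has a second RefSeq start inside the gene, at the window chr11:105974939-105975238, known as the start of the testis form. The deposited values are per gene and cannot separate the products of the 2 starts.

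Values are FPKM as deposited, read numbers scaled by gene length and library depth, and so can be compared between genes. Read totals, worked back from FPKM and length, were 15.4 to 21.0 M (mega-reads in genes) in 18 hippocampal libraries and 15.8 to 23.5 M in the 24 hemisphere libraries. The other 6 hippocampal libraries listed only 7805 to 15684 genes above 0, against 18914 to 23044 in the 18 and 23161 to 25610 in the hemisphere. They are AngII plus hydralazine 5, AngII 3, vehicle plus hydralazine 3 and 4, and vehicle 3 and 4, and are called few-gene libraries here; vehicle plus hydralazine 3 held 1.21 M reads. The tissue labels were checked against markers. Summed FPKM of 8 hippocampal neuron markers were 225 to 362 in the hippocampus and 46.4 to 72.6 in the hemisphere. Summed FPKM of 8 striatal markers were 21.1 to 57.4 in the hippocampus and 165 to 229 in the hemisphere, so every library went with its label.

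Tests were run with limma on log2(FPKM + 0.5) for genes that reached 0.5 FPKM in 6 or more of the fitted libraries. Fold changes are on that scale, which understates the change of low genes. A gene was called where its p, adjusted by Benjamini-Hochberg over all genes tested, was under 0.05.

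**Figure D1:**
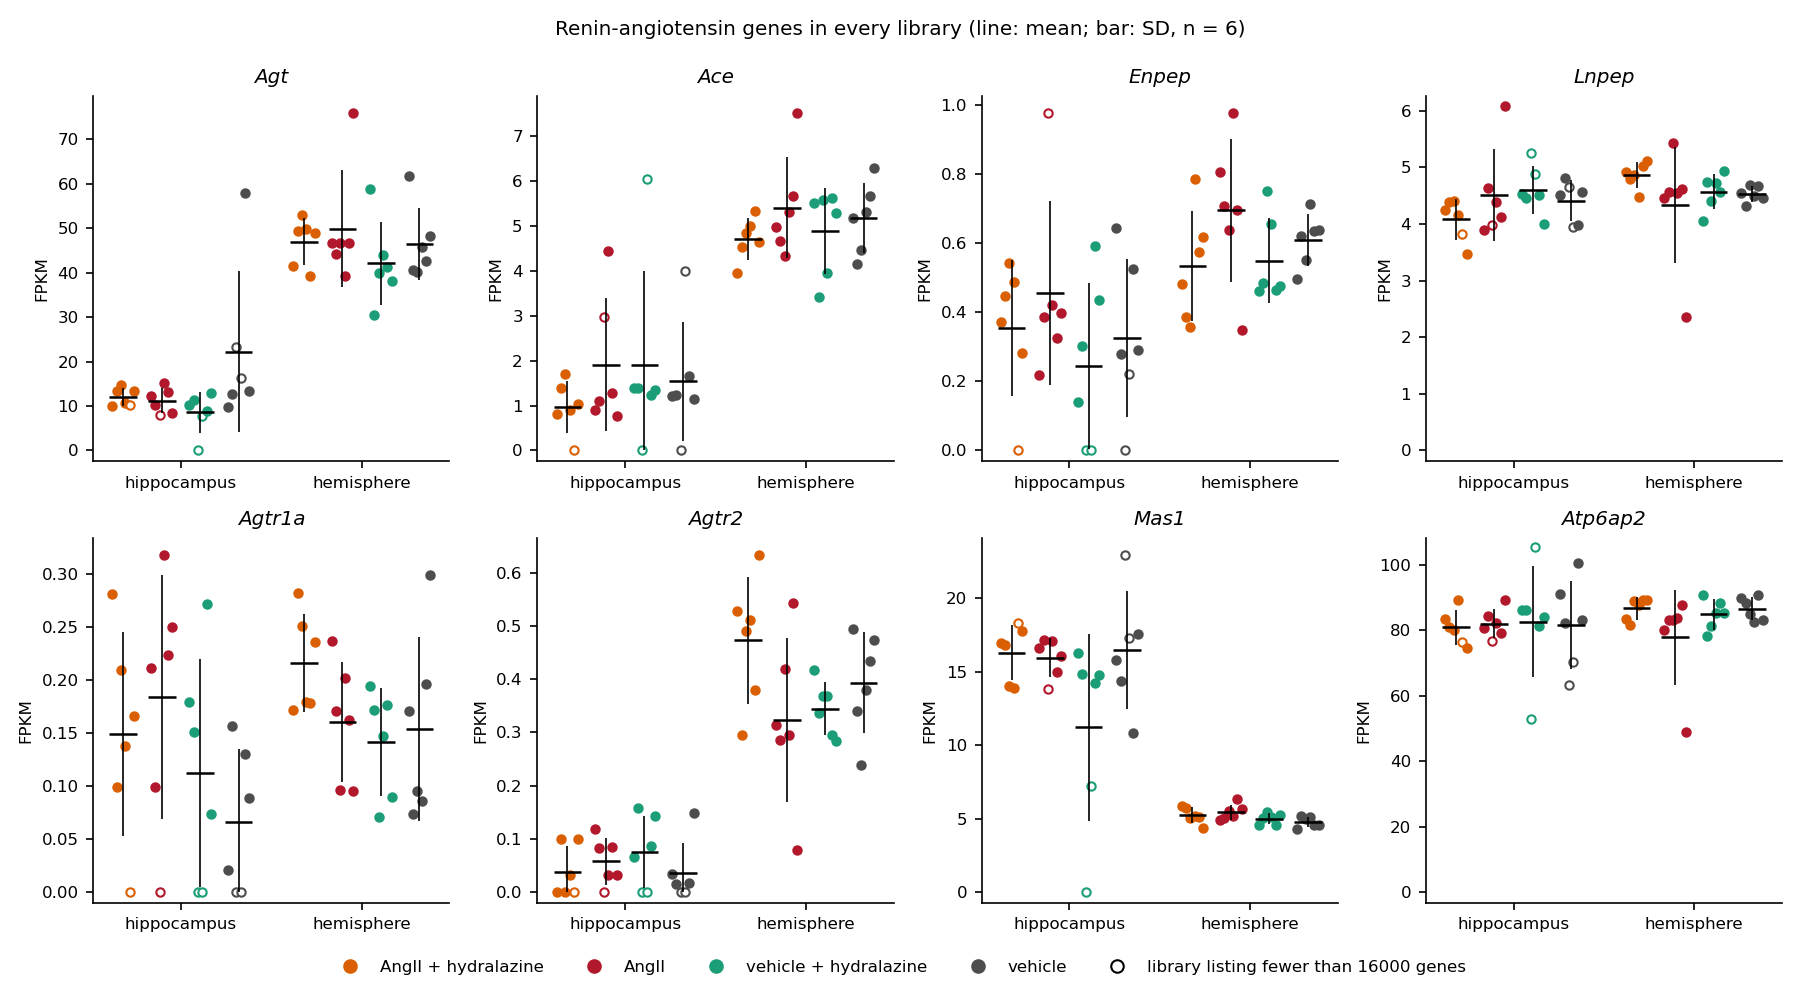
FPKM of the 8 members (vertical axis, from 0) in each of the 48 libraries, hippocampus left and hemisphere right, coloured by treatment; horizontal lines are means and vertical bars the SD (n = 6), and open circles are the 6 few-gene libraries. Agt and Ace lie lower and Mas1 higher in most hippocampal libraries, while the 4 treatments of a region overlap.

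Agt (ENSMUSG00000031980, chr8:124556534-124569706, minus strand), the only known precursor of the angiotensins, was lower in the hippocampus than in the hemisphere. Under AngII plus hydralazine its lowest, median and highest values were 9.89, 11.9 and 14.8 FPKM in the hippocampus, against 39.2, 49.2 and 53.0 FPKM in the hemisphere. Under AngII they were 7.88, 11.2 and 15.3 FPKM in the hippocampus and 39.3, 46.6 and 76.0 FPKM in the hemisphere. Every hippocampal library lay below every hemisphere library in both of these treatments. Under vehicle plus hydralazine the values were 0, 9.61 and 12.9 FPKM in the hippocampus and 30.6, 40.6 and 58.9 FPKM in the hemisphere. Under vehicle they were 9.80, 14.9 and 58.0 FPKM in the hippocampus and 40.1, 44.2 and 61.8 FPKM in the hemisphere. The regions therefore overlapped under vehicle only, through 1 hippocampal library. The 0 came from few-gene library 3 of vehicle plus hydralazine, where a count of 0 reads allows up to 1.15 FPKM (3 reads) by counting error alone.

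Ace (ENSMUSG00000020681, chr11:105967945-105989964, plus strand), which is known in the brain from the choroid plexus, vessels and striatal projection neurons, followed the same direction. Under AngII plus hydralazine it stood at 0, 0.976 and 1.70 FPKM (lowest, median, highest) in the hippocampus and at 3.95, 4.75 and 5.33 FPKM in the hemisphere. Under AngII the values were 0.759, 1.19 and 4.45 FPKM in the hippocampus and 4.33, 5.15 and 7.52 FPKM in the hemisphere. The second treatment overlapped through a single hippocampal library. Under vehicle plus hydralazine Ace was 0, 1.37 and 6.05 FPKM in the hippocampus, against 3.42, 5.39 and 5.63 FPKM in the hemisphere. Under vehicle it was 0, 1.23 and 4.01 FPKM in the hippocampus, against 4.16, 5.24 and 6.29 FPKM in the hemisphere. The 3 zeros and the values of 6.05 and 4.01 FPKM all came from few-gene libraries. Without those libraries, 17 of 18 hippocampal libraries were below all 24 hemisphere libraries.

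Mas1 (ENSMUSG00000068037, chr17:12841079-12868143, minus strand) went the other way. Under AngII plus hydralazine it was 13.9, 16.9 and 18.3 FPKM (lowest, median, highest) in the hippocampus and 4.38, 5.15 and 5.88 FPKM in the hemisphere. Under AngII it was 13.8, 16.4 and 17.1 FPKM in the hippocampus and 4.93, 5.37 and 6.30 FPKM in the hemisphere. The ranges were far apart in both treatments. Under vehicle plus hydralazine Mas1 was 0, 14.5 and 16.3 FPKM in the hippocampus and 4.54, 5.06 and 5.48 FPKM in the hemisphere. Under vehicle it was 10.8, 16.5 and 22.96 FPKM in the hippocampus and 4.29, 4.75 and 5.20 FPKM in the hemisphere. Of the 24 hippocampal libraries 23 exceeded every hemisphere library. The exception was few-gene library 3 of vehicle plus hydralazine, at 0 reads (up to 0.827 FPKM at that depth by counting error alone). That limit does not cover genes missing from the library, which listed only 7805 genes above 0.

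The region difference was tested within each treatment. In bulk tissue, fewer cells of a type and less RNA per cell cannot be told apart. Agt was lower in the hippocampus in all 4 treatments, with a log2 fold change (± SE) of -1.93 ± 0.42 under AngII plus hydralazine, -2.11 ± 0.42 under AngII, -2.72 ± 0.42 under vehicle plus hydralazine and -1.31 ± 0.42 under vehicle. The limma adjusted p was 0.000199, 7.13e-05, 7.20e-07 and 0.0102 in that order. Ace was lower by -1.95 ± 0.39, -1.47 ± 0.39, -1.54 ± 0.39 and -1.73 ± 0.39 in the same order of treatments, with limma adjusted p of 5.90e-05, 0.00218, 0.00102 and 0.000306. Mas1 was higher by 1.55 ± 0.40 under AngII plus hydralazine, by 1.47 ± 0.40 under AngII and by 1.65 ± 0.40 under vehicle, with limma adjusted p of 0.00156, 0.00310 and 0.000782. Under vehicle plus hydralazine Mas1 was not called, at 0.50 ± 0.40 (limma adjusted p = 0.302). Without hippocampal vehicle plus hydralazine 3 alone it was 1.30 ± 0.13 (limma adjusted p = 6.37e-11).

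These calls stand in a large background, because the regions differ at very many genes. Of 17643 genes tested, 42.4% were called between the regions under AngII plus hydralazine, 37% under AngII, 50.7% under vehicle plus hydralazine and 42.2% under vehicle. The members called were 3 of 6 tested, 3 of 6, 3 of 6 and 4 of 6, shares near the background; under both treatments without AngII, 1 of those called was Enpep, which passed the filter only through the hemisphere. The median log2 fold change of all genes was itself below 0, at -0.20, -0.14, -0.37 and -0.21, so the Agt and Ace changes exceeded the general shift and Mas1 ran against it. The median over the 6 tested members was -0.27, -0.14, -0.31 and -0.29.

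Leaving out the 6 few-gene libraries narrowed the intervals. Agt was then lower in the hippocampus by -1.89 under AngII plus hydralazine, -2.02 under AngII, -1.89 under vehicle plus hydralazine and -1.36 under vehicle (log2 scale, SE 0.24 to 0.26). The Ace values were -1.66, -1.62, -1.53 and -1.64 (SE 0.20 to 0.21), and the Mas1 values 1.52, 1.51, 1.5 and 1.5 (SE 0.085 to 0.091). All 12 were called by limma, with adjusted p between 4.64e-18 and 2.50e-05. The Mas1 value of 1.5 is a 2.83-fold higher FPKM + 0.5 in the hippocampus under vehicle plus hydralazine, with a 95% CI of 1.32 to 1.68 on the log2 scale. In this fit 66.7%, 61.7%, 64.7% and 63.9% of 17545 genes were called under AngII plus hydralazine, AngII, vehicle plus hydralazine and vehicle.

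**Figure D2:**
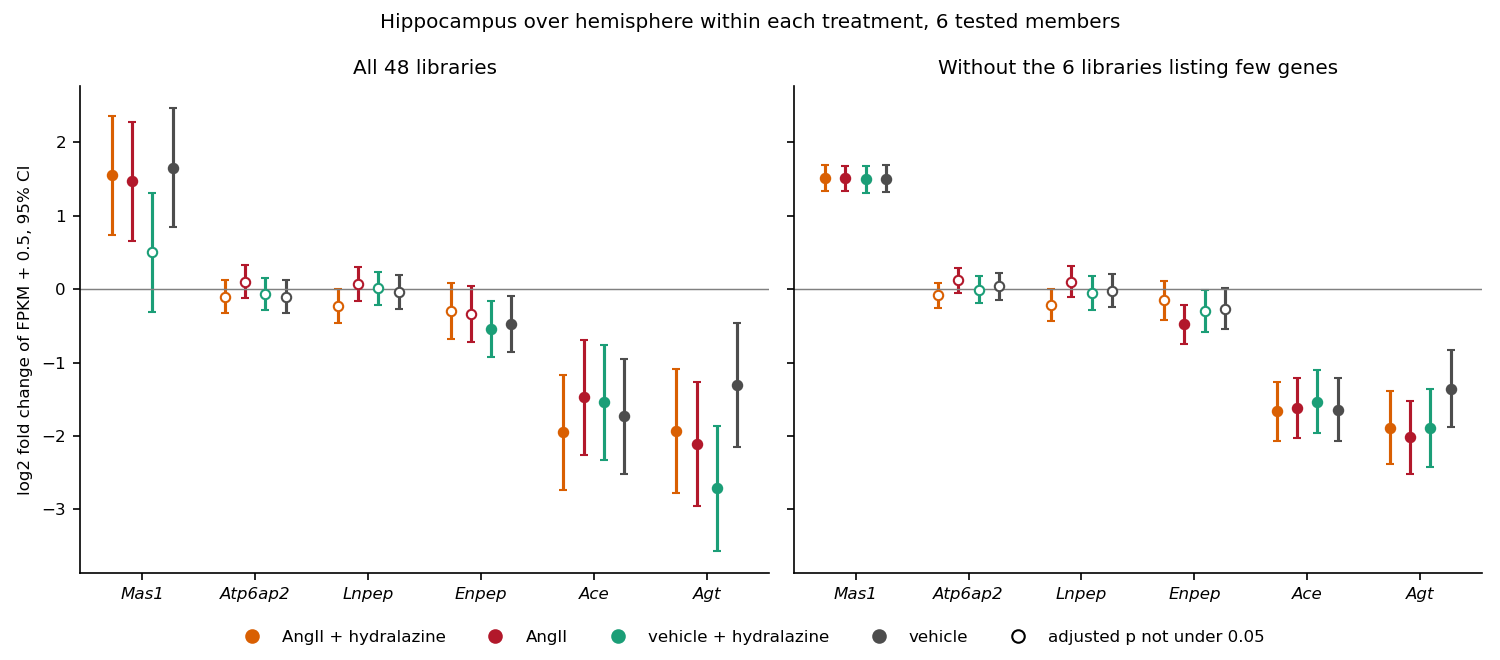
Log2 fold change of FPKM + 0.5, hippocampus over hemisphere (vertical axis), with its 95% CI, for the 6 tested members in each treatment, from all 48 libraries (left) and without the 6 few-gene libraries (right); filled points have an adjusted p under 0.05, and Enpep passed the filter only through the hemisphere. Mas1 lies near 1.5 and Ace near -1.6 in all 4 treatments on the right, and the Mas1 value of 0.50 under vehicle plus hydralazine is on the left only.

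The hemisphere holds tissue that the hippocampus lacks, and other markers moved with the region. Summed FPKM of 10 markers of thalamus, hypothalamus and midbrain were 9.37 to 83.0 in the hippocampus and 71.7 to 154 in the hemisphere, with all 10 above 0 in each hemisphere library. Summed FPKM of 8 choroid plexus markers were 2.69 to 2010 in the hippocampus and 292 to 841 in the hemisphere. Those of 8 astrocyte markers were 333 to 408 in the hippocampus and 300 to 345 in the hemisphere, ranges that overlap. Their medians without the few-gene libraries were 363 FPKM in the hippocampus and 327 FPKM in the hemisphere. The sum of 20 housekeeping genes was also higher in the hippocampus, with medians of 3757 and 2471 FPKM without those libraries. The part of tissue make-up in the region differences was not tested.

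Hippocampal vehicle 5 had 58.0 FPKM of Agt, against 8.52 to 15.3 FPKM in the 17 other hippocampal libraries outside the few-gene set. Its summed thalamus, hypothalamus and midbrain markers were 83.0 FPKM. Of the 10, 6 exceeded all 17: Tcf7l2 (14.7 FPKM), Slc17a6 (21.3 FPKM), Prkcd, Rora, Lhx9 and Avp. Hcrt, Oxt, Nkx2-1 and Agrp did not, at 0.565, 0.113, 0.0851 and 0.179 FPKM. Of 6 markers on the cerebellar list, 3 also exceeded all 17. They were Calb2 (135.6 FPKM, others up to 9.69), Cbln1 (10.2 FPKM, others up to 2.64) and Car8 (0.722 FPKM, others up to 0.609). Pcp2, Cbln3 and Gabra6 did not, at 0.0661, 0.0497 and 0 FPKM. The cerebellar list summed to 147 FPKM in this library, nearly all of it Calb2. Group medians of that sum were 8.20 to 10.5 FPKM in the hippocampus, and the hemisphere libraries had 241 to 335 FPKM. Hippocampal vehicle 5 also had the lowest Mas1 of these 18 libraries, at 10.8 FPKM against 13.9 to 17.8 FPKM. Its Atp6ap2, a member not called between regions, was the highest of the 18, at 100.4 FPKM against 74.7 to 91.0 FPKM. Without this library Agt was lower in the hippocampus under vehicle by -1.64 ± 0.41 (limma adjusted p = 0.00125). Hippocampal AngII 4 had 4.45 FPKM of Ace, against 0.759 to 1.70 FPKM in the 17 others, and all 8 choroid plexus markers exceeded the 17, with Ttr, the transthyretin gene, at 1979 FPKM. Ace was also high in few-gene libraries, at 6.05 FPKM in vehicle plus hydralazine 4, 4.01 FPKM in a vehicle library and 2.97 FPKM in AngII 3. Of the 8 choroid plexus markers, 6 were at 0 in vehicle plus hydralazine 4 and in AngII 3, and 3 in few-gene library vehicle 4. These libraries list many low genes at 0. Ttr, at 0 in AngII 3, had a median of 22.9 FPKM in the 18 hippocampal libraries outside the few-gene set.

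**Figure D3:**
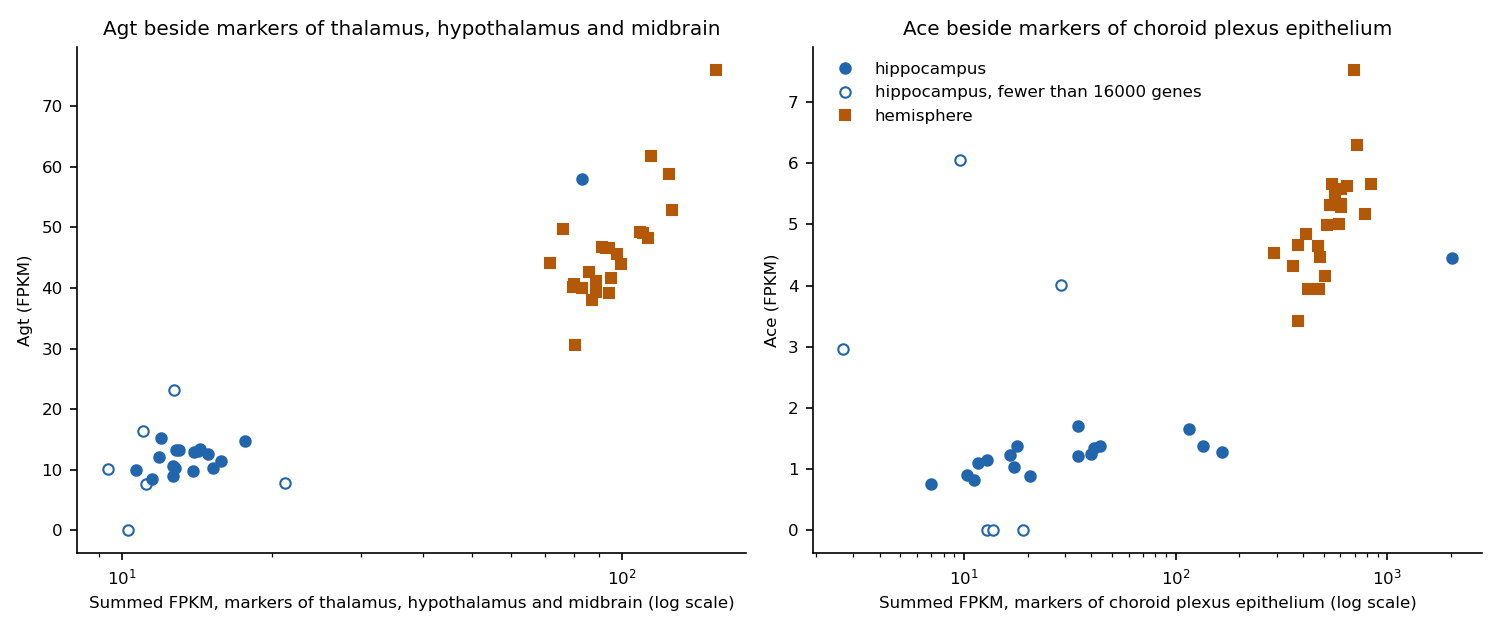
Agt FPKM against the summed FPKM of 10 thalamus, hypothalamus and midbrain markers (left) and Ace FPKM against the summed FPKM of 8 choroid plexus markers (right), horizontal axes on a log scale, 1 point per library. The hippocampal library at 58.0 FPKM of Agt and that at 4.45 FPKM of Ace stand at marker sums of 83.0 and 2010 FPKM; open circles are few-gene libraries.

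Among the peptidases that shorten angiotensins, Enpep (ENSMUSG00000028024, chr3:129269175-129332720, minus strand), which converts AngII to angiotensin III, was low everywhere. Its values spanned 0 to 0.978 FPKM (0 to 63 reads) in the hippocampus and 0.350 to 0.977 FPKM (31 to 98 reads) in the hemisphere, and the ranges overlapped in every treatment. All 4 hippocampal group means were under 0.5 FPKM and all 4 hemisphere means above it. Enpep reached 0.5 FPKM in 5 hippocampal and 15 hemisphere libraries, so it passed the filter only through the region where it is higher, and the calls it received under vehicle plus hydralazine and vehicle are given no weight. The region difference was -0.30 ± 0.19 on the log2 scale under AngII plus hydralazine, -0.34 ± 0.19 under AngII, -0.55 ± 0.19 under vehicle plus hydralazine and -0.47 ± 0.19 under vehicle. Without the few-gene libraries it was -0.15, -0.48, -0.29 and -0.26, and Enpep was then called under AngII only. That call is given no weight either, for the same reason. Under quantile scaling the difference changed sign in all 4 treatments.

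Lnpep (ENSMUSG00000023845, chr17:17521410-17625050, minus strand), the angiotensin IV binding site, had similar levels in both regions. Group means were 4.08 to 4.61 FPKM in the hippocampus and 4.33 to 4.87 FPKM in the hemisphere. Under AngII plus hydralazine the ranges did not overlap, at 3.47 to 4.4 FPKM in the hippocampus against 4.47 to 5.12 FPKM in the hemisphere. That difference was -0.23 ± 0.11 on the log2 scale and was not called (limma adjusted p = 0.101), but it was called without the AngII 6 libraries of both regions (-0.23 ± 0.080, limma adjusted p = 0.0168). In the other 3 treatments it lay between -0.036 and 0.074, with 95% CI bounds from -0.27 to 0.30.

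Atp6ap2 (ENSMUSG00000031007, chrX:12587801-12617049, plus strand) was the most abundant member. Its group means were 80.8 to 82.6 FPKM in the hippocampus and 77.8 to 86.7 FPKM in the hemisphere. The region difference was between -0.10 and 0.10 on the log2 scale in the 4 treatments and was not called in any, with 95% CI bounds from -0.32 to 0.32. Quantile scaling called it lower in the hippocampus in 3 treatments, at -0.51 to -0.54.

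Agtr1a and Agtr2, the receptor genes for AngII itself, were near 0, meaning a mean under 0.5 FPKM in all 8 groups. Agtr1a (ENSMUSG00000049115, chr13:30336441-30382867, plus strand) had 0 to 0.318 FPKM (0 to 17 reads) in the hippocampus and 0.0704 to 0.299 FPKM (4 to 18 reads) in the hemisphere. It was listed at 0 in 6 hippocampal libraries, which were the 6 few-gene libraries. Outside these the median was 0.162 FPKM in the hippocampus, against 0.172 FPKM in the hemisphere, and the regions overlapped in every treatment. Agtr1a did not pass the filter on low values.

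Agtr2 (ENSMUSG00000068122, chrX:21484544-21489164, plus strand) had 0 to 0.158 FPKM (0 to 10 reads) in the hippocampus and 0.0798 to 0.634 FPKM (5 to 45 reads) in the hemisphere. The ranges were apart in 3 treatments and overlapped under AngII, where hemisphere AngII 6 held 5 reads. Agtr2 reached 0.5 FPKM in 0 hippocampal and 4 hemisphere libraries. It did not pass the filter on low values, so no test is given.

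The comparison of AngII with vehicle asks whether 2 weeks of infused hormone alter the genes of its own pathway. In the hemisphere limma called 0 of the 6 tested members, and 12 of 16747 genes, or 0.0717%, were called over the whole table. Mas1 was the only member with an unadjusted p under 0.05. It was 4.93, 5.37 and 6.30 FPKM (lowest, median, highest) under AngII and 4.29, 4.75 and 5.20 FPKM under vehicle, so the groups overlapped. The difference was 0.17 ± 0.070 on the log2 scale (limma adjusted p = 0.512). For Agt it was 0.083 ± 0.14, with a 95% CI of -0.21 to 0.38, and for Ace 0.049 ± 0.12, with a 95% CI of -0.21 to 0.30. Over the 6 members the 95% CI bounds lay between -0.37 and 0.38, or 0.772-fold to 1.30-fold.

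Hemisphere AngII 6 stood apart from the other 23 hemisphere libraries at most members. It had the highest Agt (76.0 FPKM, others up to 61.8) and Ace (7.52 FPKM, others up to 6.29). It also had the lowest Atp6ap2 (48.9 FPKM, others from 78.1), Lnpep (2.36 FPKM, others from 4.05), Agtr2 (0.0798 FPKM, others from 0.239) and Enpep (0.350 FPKM, others from 0.356). Its share of mitochondrial reads was 2.77%, against a hemisphere median of 6.17%; the part of this in its values was not tested. Without it the difference of Atp6ap2 between AngII and vehicle was -0.051 ± 0.041, against -0.18 ± 0.094 with it, and that of Lnpep changed sign, to 0.054 ± 0.051, against -0.090 ± 0.11. Neither was called with or without it.

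In the hippocampus limma called 0 of 5 tested members between AngII and vehicle, none had an unadjusted p under 0.05, and 0% of 15267 genes were called. Agt was -0.72 ± 0.56 (95% CI -1.88 to 0.45), and -0.39 ± 0.56 without hippocampal vehicle 5. Over the 5 members the 95% CI bounds lay between -1.88 and 1.40, or 0.272-fold to 2.64-fold, much wider than in the hemisphere. Without the few-gene libraries Agt was -0.58 ± 0.35 and Mas1 0.18 ± 0.11 under AngII relative to vehicle (limma adjusted p = 0.808 for both). The AngII effect did not differ detectably between the regions: 0 of 6 members and 0% of 17643 genes were called, with Agt at -0.80 ± 0.60 (limma adjusted p = 1, hippocampus minus hemisphere).

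Adding hydralazine to AngII also left 0 members called. In the hemisphere, AngII plus hydralazine against AngII gave 0 of 6, with 0 at an unadjusted p under 0.05, and 0% of all genes. The differences ran from -0.20 ± 0.12 for Enpep, with lowest, median and highest values of 0.356, 0.529 and 0.786 FPKM under both drugs and 0.350, 0.702 and 0.977 FPKM under AngII, to 0.18 ± 0.11 for Lnpep. Without hemisphere AngII 6 the Lnpep value was 0.040 ± 0.051, and that of Atp6ap2 0.052 ± 0.041, against 0.18 ± 0.094 with it. In the hippocampus 0 of 5 members and 0% of genes were called, and Ace had the largest difference, at -0.64 ± 0.53 (limma adjusted p = 1). Without the few-gene libraries that was -0.21 ± 0.27.

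AngII plus hydralazine was also set against vehicle. In the hemisphere 0 of 6 members (0 at an unadjusted p under 0.05) and 0% of genes were called, with differences between -0.12 and 0.12. In the hippocampus 0 of 5 members and 0% of genes were called, and the differences ran from -0.60 ± 0.56 for Agt to 0.011 ± 0.55 for Mas1. Against vehicle plus hydralazine, AngII plus hydralazine gave 0 of 6 members and 0% of genes in the hemisphere, where Agt was 0.17 ± 0.14. In the hippocampus the same comparison gave 0 of 5 members and 0% of genes, while the median of all genes was at 0.15, with Mas1 at 1.1 ± 0.55 and Agt at 0.96 ± 0.56; without the few-gene libraries these were 0.071 ± 0.11 and 0.18 ± 0.35.

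Hydralazine alone against vehicle gave 0 of 6 members and 0% of genes in the hemisphere, with Agt at -0.15 ± 0.14. In the hippocampus 0 of 5 members and 0% of genes were called. Agt was -1.56 ± 0.56 there, with an unadjusted p of 0.0108 and a limma adjusted p of 0.677. Few-gene library 3 of vehicle plus hydralazine (0 FPKM) and vehicle 5 (58.0 FPKM) lay at the ends of that comparison. The median of all genes was also shifted there, by -0.12. Without the few-gene libraries Agt was -0.69 ± 0.37 (limma adjusted p = 1). The interaction of AngII and hydralazine, the test of whether one drug alters the effect of the other, gave 0 members and 0% of genes in both regions. Agt in the hippocampus was 1.68 ± 0.80 (unadjusted p = 0.0463, limma adjusted p = 0.931), and 0.76 ± 0.50 without the few-gene libraries. The comparisons within a region share groups, so their values are not independent of each other.

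**Figure D4:**
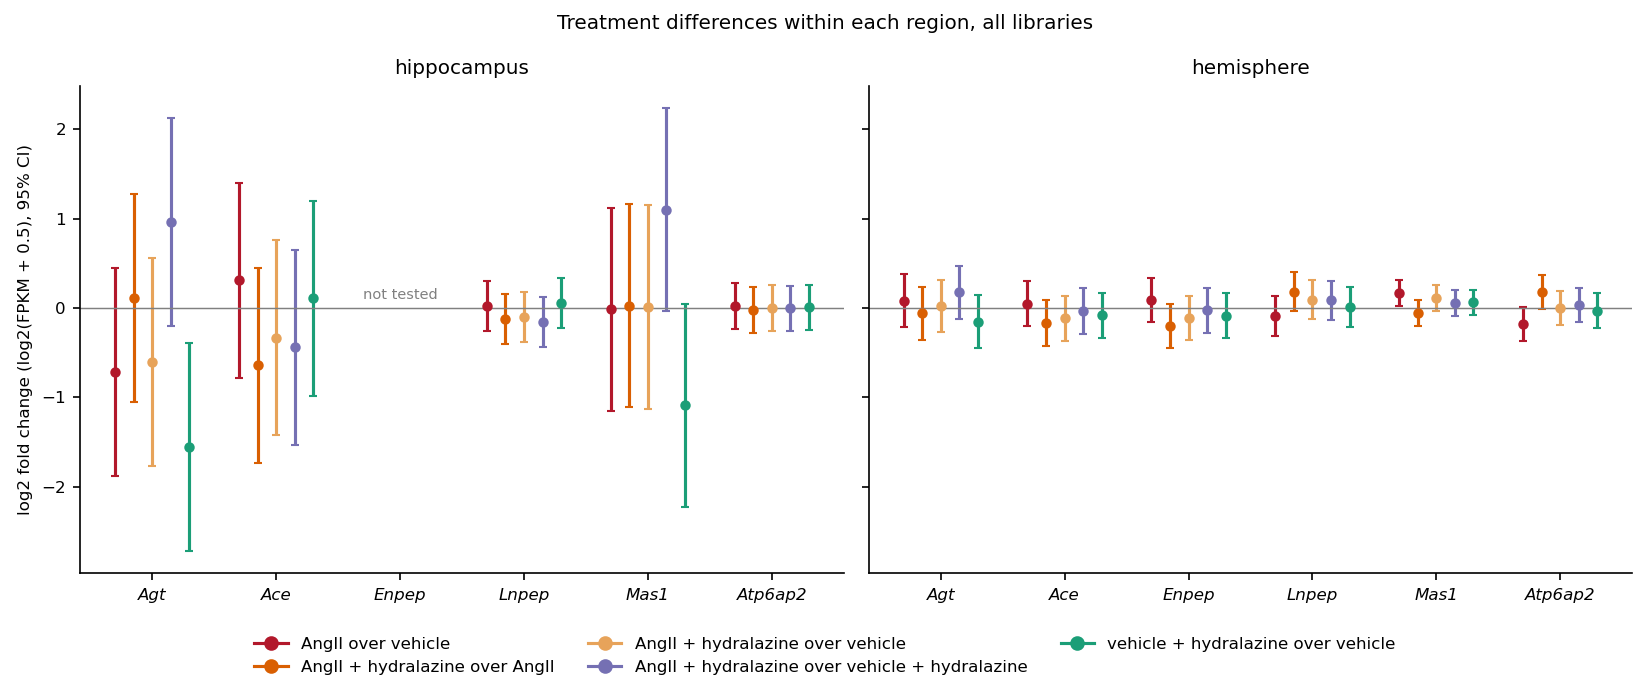
Log2 fold change of FPKM + 0.5 (vertical axis) with its 95% CI for 5 treatment comparisons in the hippocampus (left) and the hemisphere (right), all libraries; the group named first in the legend is on top of the fold change. Hemisphere intervals lie between -0.45 and 0.47, and those of Agt, Ace and Mas1 are wider in the hippocampus, where Enpep was not tested.

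Ordered by group mean, the members gave 3 patterns. For Mas1 the 4 hippocampal means came first, from 16.5 ± 4.0 FPKM under vehicle (SD, n = 6 in each group), 16.3 ± 1.9 under AngII plus hydralazine and 16.0 ± 1.3 under AngII to 11.2 ± 6.4 under vehicle plus hydralazine. The hemisphere means followed, from 5.45 ± 0.51 FPKM under AngII to 4.77 ± 0.37 FPKM under vehicle. For Agt the hippocampal means ran from 22.2 ± 18.1 FPKM under vehicle to 8.54 ± 4.57 FPKM under vehicle plus hydralazine, below hemisphere means from 49.9 ± 13.1 FPKM under AngII to 42.1 ± 9.4 FPKM under vehicle plus hydralazine. In both orders the mean ± SD ranges of neighbouring groups overlapped. For Ace the hippocampal means ran from 1.91 ± 1.48 FPKM under AngII to 0.97 ± 0.58 FPKM under AngII plus hydralazine, and only the step to the lowest hemisphere mean, 4.72 ± 0.47 FPKM under AngII plus hydralazine, was wider than the SDs of its neighbours. The same held for Agtr2, whose highest hippocampal mean was 0.0759 ± 0.0679 FPKM and whose lowest hemisphere mean was 0.323 ± 0.155 FPKM. Atp6ap2, Lnpep, Agtr1a and Enpep had no step of that kind.

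The other genes of the pathway were described from a list of 24. Renin itself (Ren1) was listed at 0 in 20 of 24 hippocampal and 9 of 24 hemisphere libraries, with at most 2 and 5 reads. Agtr1b, the other mouse AT1 receptor gene, was at 0 in 23 of 24 hippocampal libraries and had at most 0.189 FPKM in the hemisphere. Anpep, aminopeptidase N, which forms angiotensin IV, had a median of 0.559 FPKM in the hippocampus and 1.37 FPKM in the hemisphere. Of the 24 genes, 11 were near 0 in all 8 groups: Ren1, Agtr1b, the receptor gene Mrgprd, the mast cell and granule proteases Cma1, Mcpt4, Ctsg and Cpa3, the kallikrein Klk1, and Cyp11b1, Cyp11b2 and Hsd11b2 of steroid metabolism.

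**Figure D5:**
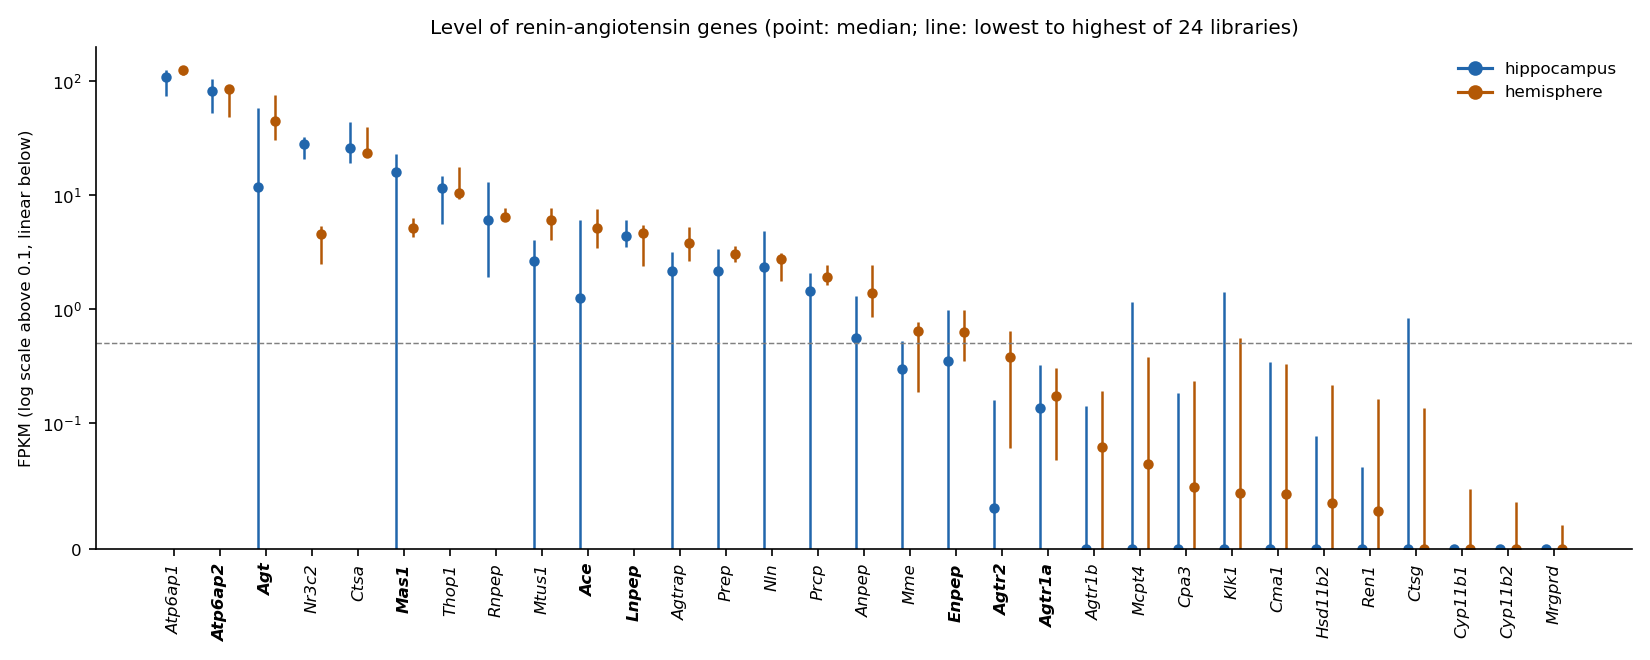
FPKM of the 8 members (bold) and other pathway genes in the hippocampus and the hemisphere; points are medians and lines run from the lowest to the highest of 24 libraries, on an axis that is logarithmic above 0.1 and linear below, with a dashed line at 0.5 FPKM. Ren1, Agtr1a, Agtr1b and Agtr2 have medians under the dashed line in both regions, while Atp6ap2 and Atp6ap1 lie near 100 FPKM.

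Between regions, 13 of the 24 pathway genes were tested. Of these, 1 was called higher and 5 lower in the hippocampus under AngII plus hydralazine, 1 higher and 4 lower under AngII, 2 higher and 6 lower under vehicle plus hydralazine, and 1 higher and 6 lower under vehicle, against the background shares given above. Nr3c2, the mineralocorticoid receptor that binds aldosterone and corticosterone, was called higher in the hippocampus in all 4, by 2.36 to 2.66 on the log2 scale (limma adjusted p from 1.45e-24 to 9.40e-23). It had a median of 27.9 FPKM in the hippocampus (20.7 to 32.5) and 4.51 FPKM in the hemisphere (2.48 to 5.29), with no overlap. Mtus1, which encodes an AT2 receptor interacting protein, was called lower in all 4 (-0.97 to -1.65), as was Anpep (-0.62 to -1.12). Mme, or neprilysin, with medians of 0.294 FPKM in the hippocampus and 0.633 FPKM in the hemisphere, is also counted as lower in all 4, but it passed the filter only through the hemisphere. Atp6ap1, the other accessory subunit gene of the proton pump, was called lower in all 4 by -0.20 to -0.31. In treatment comparisons within a region limma called none of the 12 tested pathway genes. In the hemisphere the smallest p for AngII against vehicle was that of Anpep, with 1.29 to 2.41 FPKM under AngII and 1.11 to 1.37 FPKM under vehicle, ranges that overlap. Its difference was 0.33 ± 0.12 (unadjusted p = 0.0103, limma adjusted p = 0.458).

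For each member tested in the hemisphere, the protein-coding genes with the most similar profile were sought by Pearson's r of log2(FPKM + 0.5) over the 24 hemisphere libraries. These values are descriptions, since libraries share their composition and hemisphere AngII 6 weighs on them. For Agt the closest were Sncb (0.94), Os9 (0.94) and Tppp3 (0.93), with r of 0.92, 0.92 and 0.90 without AngII 6, and 0.25, -0.16 and 0.64 over the 18 hippocampal libraries outside the few-gene set. For Ace they were Sv2a (0.83), Uba1 (0.82) and Wfikkn2 (0.82), and of these Wfikkn2 also had a positive r, 0.61, over the 18 hippocampal libraries. Mas1 was closest to Fbxo16 (0.76), Fam219b (0.73) and Clec18a (0.72), with hippocampal r of -0.35, 0.24 and -0.49. Atp6ap2 was closest to Abi1, Sucla2 and Paip1 (0.97, 0.97 and 0.97), and Lnpep to Ddx5, Srsf1 and Ntm (0.96, 0.96 and 0.96). Without AngII 6 these 6 values were between 0.72 and 0.78. Enpep was closest to 4931406C07Rik (0.72), Thnsl1 (0.71) and C330018D20Rik (0.70), with hippocampal r of at most 0.19.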

How the data were processed

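Libraries of hippocampal and hemisphere RNA were made and sequenced by a company, as the labels' protocols state. What the authors deposited is FPKM for 54532 genes in 48 libraries, with a gene length in bases beside each gene; all value columns matched a library and 0 were left out. Per the submitters' processing notes, DESeq 1.10.1 was used and the builds named are GRCm38 and mm10. The aligner, counting tool or use of strand is not given in the sources used here, and overlapping or antisense genes are therefore uncertain. Coordinates are the file's own and equal those of GENCODE M21 for the 32 genes named; 99.8% of all identifiers are in that annotation.

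Because FPKM are no counts, count models were not used. Within a tolerance of 0.1 read, 100% of FPKM values were whole multiples of 1 read's worth, from which depth and read numbers were taken; limits for 0 reads (3 reads) cover counting error only. Values were tested as log2(FPKM + 0.5) with limma 3.58.1 in R 4.3.3 (mean-variance trend, robust prior, two-sided), keeping genes that reached 0.5 FPKM in 6 or more fitted libraries. Treatment comparisons used the 24 libraries of a region and region comparisons all 48. The fit was also run on simulated data with a fixed spread and the same mean profile in every library. That run lacked the missing genes of the few-gene libraries, so it cannot show how the fit behaves with them. Tables were made with pandas 2.3.3 in Python 3.11.15, and figures with matplotlib 3.10.9.

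The members and gene lists were chosen with earlier results of these data known. By rule, all 8 members were named in every comparison; pathway genes were named as up to 4 called genes by smallest p, plus levels of Ren1, Agtr1b and Anpep; and 3 genes of like profile were named per member. The values of 1 pathway gene are not reported here. Near 0 means a mean under 0.5 FPKM in all 8 groups. Alternatives were other pseudocounts, filters, scalings, priors and weights, a replicate block, and libraries left out. Replicate numbers are shared between groups, but same-numbered libraries correlated over 0.1 in only 0 of 24 pairs between regions and, between treatments, 8 of 36 in the hippocampus and 3 of 36 in the hemisphere, so the main fit has no block.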

Additional observations from a re-analysis of the deposited data

Results flagged for a closer look

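A library was singled out where the gap between it and the nearest other library of its group of 6 exceeded 0.625 of the group's range. Of the 64 groups of 8 genes, 8 had such a library, and chance gives about 5%. Of the 8, 5 were hippocampal and 2 were few-gene libraries.

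Hemisphere AngII 6 accounted for 3 of them: its Agt was high at 76.0 FPKM, its Atp6ap2 low at 48.9 FPKM and its Lnpep low at 2.36 FPKM. Agt was high in hippocampal vehicle 5, at 58.0 FPKM, the library that also held the high thalamus, hypothalamus and midbrain marker sum. Ace was high in hippocampal vehicle plus hydralazine 4, a few-gene library, at 6.05 FPKM. Enpep was high in hippocampal AngII 3, also a few-gene library, at 0.978 FPKM, against 0.219 to 0.421 FPKM in the other AngII libraries. Lnpep was high in hippocampal AngII 6, at 6.08 FPKM, against 3.90 to 4.63 FPKM in the others. Agtr2 was high in hippocampal vehicle 6, at 0.149 FPKM, which rests on 8 reads, against at most 0.0344 FPKM in the others.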

How the results depend on the processing

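Of 348 combinations of a called region difference with an alternative setting, 326 were still called and 2 changed sign, both Enpep under quantile scaling (0.11 under vehicle and 0.21 under vehicle plus hydralazine). The number of members called between regions was 5 with library weights under AngII, against 3, was 2 with a pseudocount of 0.1 under vehicle, against 4, and was 5 with quantile scaling under vehicle plus hydralazine, against 3. With that pseudocount Agt under vehicle was -1.33 (limma adjusted p = 0.0695). Leaving out 1 library at a time gave 3 to 4 members under AngII plus hydralazine, AngII and vehicle, 2 to 3 under vehicle plus hydralazine, and 0 in every treatment comparison. Whole-table calls between regions moved as well. Over the settings other than leaving out 1 library, they were 6647 to 12827 genes under AngII plus hydralazine and 5734 to 12764 under AngII. They were 5222 to 12773 under vehicle plus hydralazine and 6613 to 12483 under vehicle. With 1 library left out they were 6945 to 7281, 5848 to 6991, 8358 to 9171 and 6894 to 7421, in that order. The member counts are not read apart from this background. Of 2434 combinations not called, 17 were called under the alternative, all between regions. The count of 12 genes called in the hemisphere between AngII and vehicle was 0 without hemisphere AngII 4, vehicle 5 or vehicle 6, 3 without vehicle 2, 6 without AngII 5 or vehicle 4, and 20 without vehicle 3. The count was 38 with library weights, 5 with a replicate block, 4 with no filter and 2 when only the groups compared were fitted. For AngII plus hydralazine against vehicle in the hemisphere, library weights called 102 genes, against 0. Without the few-gene libraries, a setting fixed with their values known, Mas1 was called in all 4 treatments.

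Same-numbered libraries of both regions had correlations of -0.21 to 0.04, with 0 of 24 pairs over 0.1. Between treatments of a region the range was -0.21 to 0.24 in the hippocampus, with 8 of 36 pairs over 0.1, and -0.19 to 0.45 in the hemisphere, with 3 of 36. Not every pair passed 0.1, so the libraries were taken to share only a number. This rule cannot exclude that same-numbered libraries share a mouse or a batch. The AngII 6 libraries had the lowest mitochondrial share of their region, 2.77% in the hemisphere and 5.74% in the hippocampus. With a replicate block, 3 members were called in each region comparison, Enpep under vehicle being the call lost (-0.47, limma adjusted p = 0.081), and 0 in each treatment comparison. A block combined with leaving out the few-gene libraries, added after the data were seen, gave 4 under AngII and 3 in the other treatments. Whole-table calls between regions with either block lay within the ranges given above. Depth limits Agtr1a and Agtr2, which rest on at most 18 and 45 reads per library.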
